A study of Rattus norvegicus with 2 samples.

Results

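The chemokine system of rat lung was described from 58 probe sets for 45 genes, out of 31042 non-control probe sets and 14217 genes. The members were all non-control probe sets whose platform annotation gave exactly 1 gene symbol, that symbol naming a CC, CXC, CX3C or XC chemokine, its receptor or an atypical chemokine receptor. They comprised 29 ligand genes with 38 probe sets and 16 receptor genes with 20 probe sets. Updating the symbols through Entrez identifiers left the membership at 58 probe sets. *Ccr7*, *Ccr8*, *Ccr9*, *Cxcr6*, *Xcr1* and *Ccl25* were not among the members and were not analysed here.

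Total RNA from rat lung was hybridised to 2 Affymetrix rat genome arrays in a study of how reproducible expression values are. One array belonged to experimenter 2 and the other to experimenter 1, with 1 array each. Both shared the tissue, the silica-column extraction and the biotin labelling, and the labels give no strain, sex, age, treatment or number of animals, nor whether the RNA was the same. Values were RMA values, which summarise the probes of a probe set after the arrays are brought to a common distribution, and were read as log2. All 5 alveolar epithelial markers lay high, between 11.545 and 14.36 for experimenter 2 and between 11.62 and 14.39 for experimenter 1.

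Chemokines are small secreted or membrane-tethered proteins that bind G protein-coupled receptors on leukocytes and direct their migration. Homeostatic chemokines are made without stimulation and place cells in tissue and lymphoid organs, whereas inducible ones appear after infection or injury, commonly through NF-κB. Atypical receptors bind chemokines without G protein signalling and remove or transport them. In lung these proteins govern the traffic of neutrophils, monocytes, eosinophils and lymphocytes through the capillary bed and airways.

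With 1 array per experimenter there was no replicate error and no test. Each difference below subtracts the value of experimenter 1 from that of experimenter 2. The SD of that difference over all genes was 0.26 and its median -0.049, and these served as the yardstick for the members. Where a gene had several probe sets, the brightest on average stood for it. The efficiency of probes varies between probe sets, so the order of genes below is an order of probe set signal, not of transcript number.

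Ligands filled the top of the order. *Cxcl3*, an attractant of neutrophils, measured 12.94 for experimenter 2 and 13.02 for experimenter 1. *Ccl6*, a CC chemokine that rodents make in macrophages, measured 12.83 and 13.06 on the same arrays. The first place therefore changed hands, with *Cxcl3* the brighter for experimenter 2 and *Ccl6* for experimenter 1. *Ccl5*, a product of T and NK cells that binds *Ccr1* and *Ccr3*, came next at 11.59 and 11.74 for experimenters 2 and 1, brighter than 98.5% and 98.7% of all probe sets.

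Among receptors the CXCL12 axis led. *Cxcr4*, the signalling receptor of CXCL12, measured 10.64 for experimenter 2 and 10.59 for experimenter 1. *Ackr3*, the atypical receptor that scavenges CXCL12, measured 10.11 and 10.01. Their ligand *Cxcl12* itself measured 10.10 for experimenter 2 and 9.55 for experimenter 1. The other probe sets of *Cxcl12* were dimmer, at 8.95 and 6.42 for experimenter 2 and 8.72 and 6.92 for experimenter 1.

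The other bright ligands came from all 3 classes used below. *Cxcl16*, a membrane-bound chemokine, measured 10.01 for experimenter 2 and 10.22 for experimenter 1. *Ccl21*, which lymphatic endothelium uses to draw in dendritic cells and T cells, measured 9.77 and 9.88. *Ccl11*, the eosinophil attractant eotaxin, measured 9.21 and 9.41. These 3 were each a little lower for experimenter 2, with differences of -0.21, -0.11 and -0.20. *Cxcl14*, a constitutive epithelial chemokine, measured 9.23 for experimenter 2 and 9.35 for experimenter 1, and *Ccl9*, another rodent macrophage chemokine, 8.91 and 8.98.

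**Figure D1:**
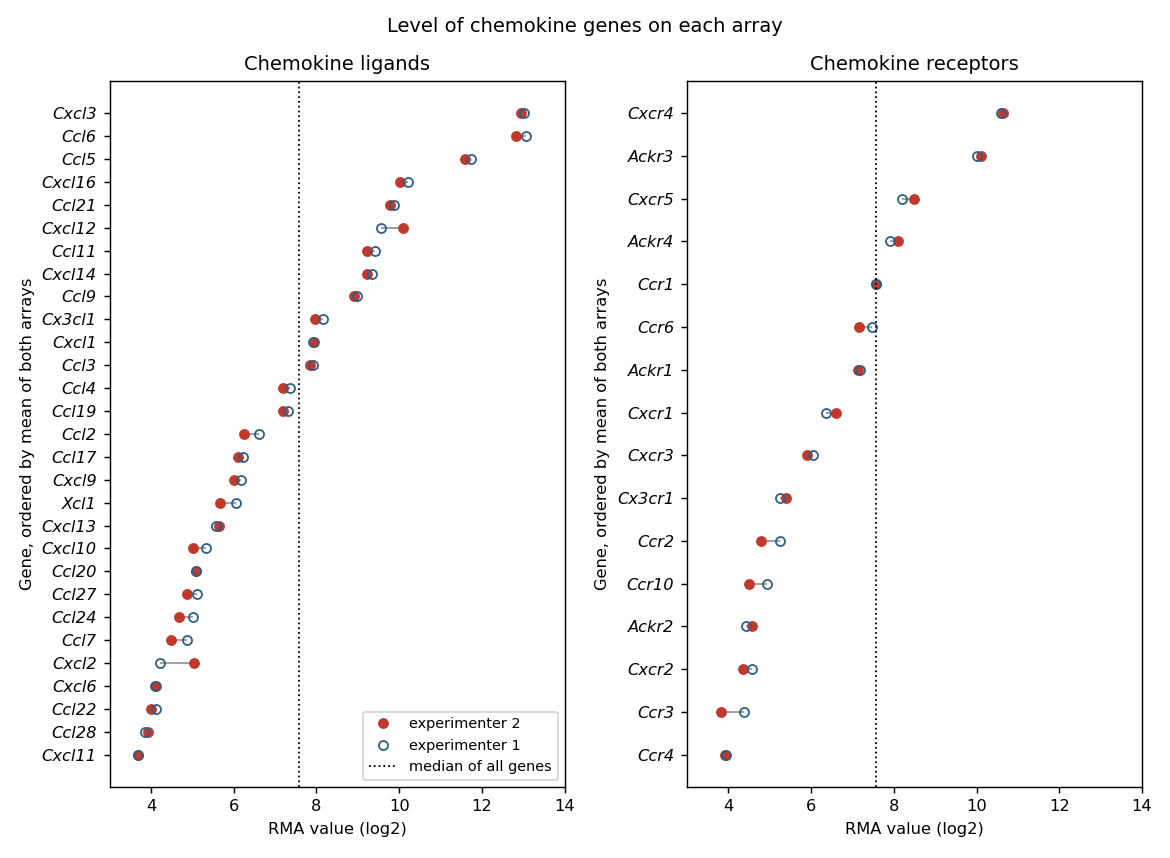
RMA value (log2, x axis) of each ligand gene (left) and receptor gene (right) by its brightest probe set, on the array of experimenter 2 (filled) and of experimenter 1 (open), ordered by the mean of both; the dotted line is the median of all genes. *Cxcl3* and *Ccl6* lie near 13 on both arrays, *Cxcr4* leads the receptors, and the widest gap between arrays is that of *Cxcl2*.

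Set beside their receptors, the ligands of several axes differed in signal. Of the neutrophil axis, *Cxcl1* measured 7.94 for experimenter 2 and 7.93 for experimenter 1, while *Cxcl6* measured 4.11 and 4.10. *Cxcl2* measured 5.04 and 4.23, and *Cxcl3*, given above, 12.94 and 13.02 by its brightest probe set. Their receptor *Cxcr2* was dim, at 4.35 for experimenter 2 and 4.58 for experimenter 1, and *Cxcr1* measured 6.59 and 6.37. The interferon-induced attractants of activated T cells, *Cxcl9*, *Cxcl10* and *Cxcl11*, measured 5.996, 5.02 and 3.68 for experimenter 2 and 6.19, 5.34 and 3.68 for experimenter 1, and their receptor *Cxcr3* measured 5.90 and 6.05. In the monocyte axis, *Ccl2* and *Ccl7* measured 6.24 and 4.48 for experimenter 2 and 6.62 and 4.87 for experimenter 1, and their receptor *Ccr2* measured 4.80 and 5.26. All 3 members of the monocyte axis were lower for experimenter 2, with differences from -0.46 to -0.38.

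The remaining receptors of CC ligands ranged widely. *Ccr1*, bound by *Ccl3* and *Ccl5*, measured 7.58 for experimenter 2 and 7.57 for experimenter 1, near the median of all genes. *Ccl3* measured 7.84 and 7.92 and *Ccl4*, its neighbour and relative, 7.20 and 7.36. *Ccr6* measured 7.15 for experimenter 2 and 7.46 for experimenter 1, whereas its ligand *Ccl20* measured 5.08 and 5.09. *Ccr3*, the eotaxin receptor of eosinophils, measured 3.83 for experimenter 2 and 4.38 for experimenter 1 despite the bright signal of *Ccl11*; its other ligand *Ccl24* measured 4.68 and 5.01. *Ccr4* and its ligands *Ccl17* and *Ccl22* measured 3.92, 6.10 and 4.01 for experimenter 2 and 3.94, 6.23 and 4.13 for experimenter 1. *Ccr10* and its ligands *Ccl27* and *Ccl28*, chemokines of skin and mucosa, measured 4.50, 4.88 and 3.92 for experimenter 2 and 4.95, 5.11 and 3.86 for experimenter 1.

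Of the axes of lymphoid tissue and tethered chemokines, *Cxcl13*, which guides B cells into follicles, measured 5.65 for experimenter 2 and 5.57 for experimenter 1. Its receptor *Cxcr5* measured 8.50 and 8.19 by its brightest probe set. *Ccl19*, which shares its receptor with CCL21, measured 7.18 for experimenter 2 and 7.31 for experimenter 1. The scavenger of both, *Ackr4*, measured 8.11 and 7.91. *Cx3cl1*, the tethered chemokine fractalkine, measured 7.97 for experimenter 2 and 8.15 for experimenter 1, and its receptor *Cx3cr1* measured 5.39 and 5.26. *Ackr1*, the Duffy receptor of venular endothelium and red cells, measured 7.13 and 7.19, *Ackr2*, a scavenger of inflammatory CC chemokines, 4.58 and 4.44, and *Xcl1*, a chemokine of NK and CD8 T cells, 5.66 and 6.05.

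As groups, ligand and receptor genes had medians that lay together for experimenter 2 and 0.41 apart for experimenter 1. For experimenter 2 the median was 6.24 for ligands and 6.25 for receptors, and for experimenter 1 it was 6.62 and 6.21. Both lay under the median of all genes, 7.57 for experimenter 2 and 7.59 for experimenter 1. The highest ligand exceeded the highest receptor on both arrays, at 12.94 against 10.64 for experimenter 2 and 13.06 against 10.59 for experimenter 1. Of the 29 ligands 9 lay above the upper quartile of all probe sets and 4 below the lower quartile, and of the 16 receptors 3 and 2. Of all genes, 39.3% lay above that upper quartile and 15.1% below that lower one. The 4 atypical receptors had medians of 7.62 and 7.55 for experimenters 2 and 1, against 5.65 and 5.66 for the 12 signalling receptors.

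Ligands were also divided by textbook class into 13 inducible, 7 homeostatic and 9 of mixed or unsettled class. The median for experimenter 2 was 6.24 for inducible and 7.18 for homeostatic ligands, and for experimenter 1 it was 6.62 and 7.31. The ranges overlapped throughout: inducible ligands ran from 3.68 to 12.94 for experimenter 2 and homeostatic ones from 3.92 to 10.10, so the brightest and the dimmest member were both inducible. The difference of the medians over both arrays was -0.82 and shrank to -0.050 when all probe sets were counted singly. The inducible *Cxcl3*, *Ccl5* and *Ccl11* lay above 9 on both arrays, as did the homeostatic *Cxcl12*, *Ccl21* and *Cxcl14*.

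**Figure D2:**
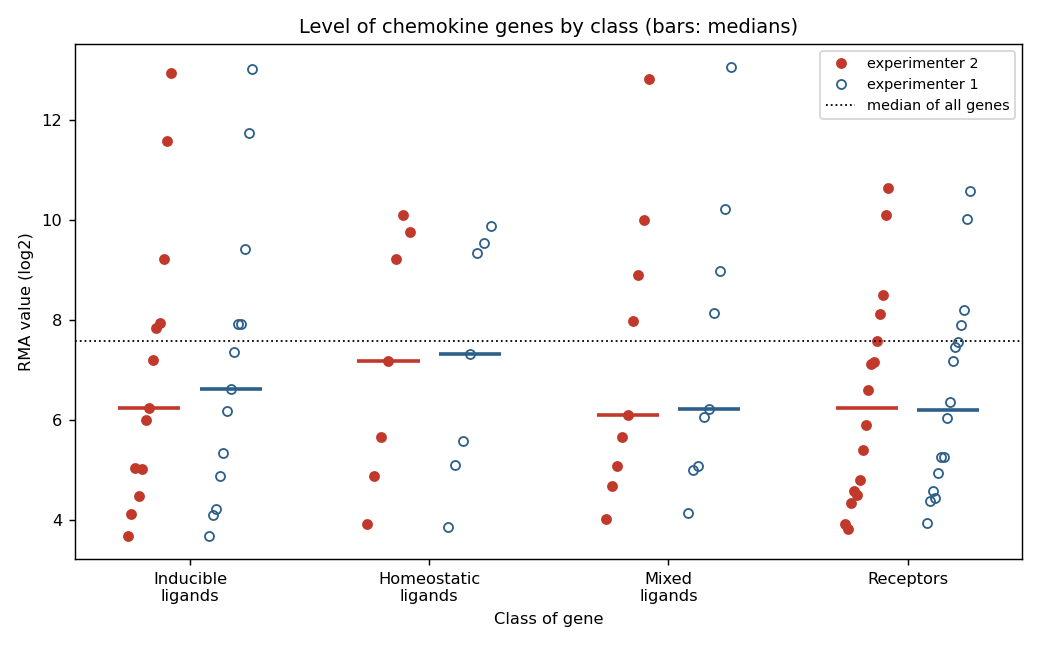
RMA value (log2, y axis) of each gene on the array of experimenter 2 (filled, left of each pair) and of experimenter 1 (open), by class; bars are medians and the dotted line is the median of all genes. Inducible ligands spread from 3.68 to above 12 on both arrays and overlap the homeostatic ones in full.

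The classes were also set beside promoter sequence, which the choice of members did not use. The textbook classes are not independent of the motif, since control through NF-κB is part of what is known of inducible chemokines. RefSeq promoter sequences of the rat assembly GRCr8 matched 35 of the 45 genes by gene identifier, and the 250 bases before each annotated start were searched on both strands. The NF-κB consensus was found in 5 of 7 inducible, 0 of 7 homeostatic and 2 of 9 mixed ligands, in 1 of 12 receptors, and in 3.52% of all 27457 promoters. The 5 inducible genes were *Cxcl1*, *Cxcl2*, *Cxcl6*, *Cxcl10* and *Cxcl11*, all on chromosome 14. The first 3 lie near each other, as do *Cxcl10* and *Cxcl11*, so these are not 5 separate cases. Another 6 inducible ligands had no matched promoter. A match describes letters and not a bound site.

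Stretches of 4 of these promoters are shown because their genes carry the contrasts in this account. *Cxcl2* had the largest difference between the arrays and *Cxcl1*, its neighbour, hardly any. *Cxcl10* represents the interferon-induced genes, and *Cxcl12* the homeostatic ones. Capitals mark the NF-κB consensus, and each stretch ends at the base before the annotated start. They lie at chr14:17467256-17467395 (minus strand) for *Cxcl2*, chr14:17479322-17479461 (minus strand) for *Cxcl1*, chr14:15988816-15989065 (plus strand) for *Cxcl10* and chr4:152060641-152060780 (plus strand) for *Cxcl12*, all in GRCr8.
Cxcl2: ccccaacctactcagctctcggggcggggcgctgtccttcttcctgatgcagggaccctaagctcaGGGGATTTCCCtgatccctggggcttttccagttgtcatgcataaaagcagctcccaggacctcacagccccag
Cxcl1: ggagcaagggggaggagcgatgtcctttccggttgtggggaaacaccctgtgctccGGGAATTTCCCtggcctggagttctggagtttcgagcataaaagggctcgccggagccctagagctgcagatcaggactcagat
Cxcl10: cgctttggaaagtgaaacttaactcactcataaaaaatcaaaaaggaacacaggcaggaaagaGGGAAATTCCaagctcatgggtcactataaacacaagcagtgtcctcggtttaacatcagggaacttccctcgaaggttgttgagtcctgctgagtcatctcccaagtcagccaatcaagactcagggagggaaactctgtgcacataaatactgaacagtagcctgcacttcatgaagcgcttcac
Cxcl12: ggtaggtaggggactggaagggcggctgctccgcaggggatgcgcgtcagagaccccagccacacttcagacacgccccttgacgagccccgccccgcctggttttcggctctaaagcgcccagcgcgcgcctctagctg
In *Cxcl2* and *Cxcl1* the capitals cover a pair of overlapping matches. The core of the interferon-stimulated response element was found in *Cxcl10* and *Ccl19* alone among the 35 members' promoters, and in 3.29% of all promoters.

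Between the arrays, 1 of the 45 genes was at least 1.5-fold apart, against 3.24% of all genes (1.93% higher and 1.31% lower for experimenter 2), and 0 were 2-fold apart, against 0.274% of all genes (0.232% higher and 0.0422% lower). That gene was *Cxcl2*, a chemokine that draws neutrophils, at 5.04 for experimenter 2 and 4.23 for experimenter 1, a 1.76-fold higher value. The count past 1.5-fold was 2 with the loess trend removed, which added *Cxcl12*, and 0 among genes at or above the median level. *Cxcl2* had a single probe set whose mean lay under the median of all probe sets (6.31), where 4.16% of genes were 1.5-fold apart. Of the other members with the NF-κB consensus, *Cxcl1* differed by 0.014, *Cxcl6* by 0.0058, *Cxcl11* by 0, *Cxcl10* by -0.33, *Ccl20* by -0.0038, *Ccl9* by -0.072 and *Ccr3* by -0.55. Of 13 cytokine inducers and regulators measured, 3 were higher for experimenter 2, namely *Il6* by 0.19, *Rela* by 0.19 and *Tnfaip3* by 0.14. The other 10 were lower, the furthest being *Tnf* at -0.40. The immediate early list was higher in 4 and lower in 4 of its 8 genes, and *Fos*, the 1 member past 1.5-fold, measured 7.89 and 6.92; the part of such genes in the *Cxcl2* difference was not tested.

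**Figure D3:**
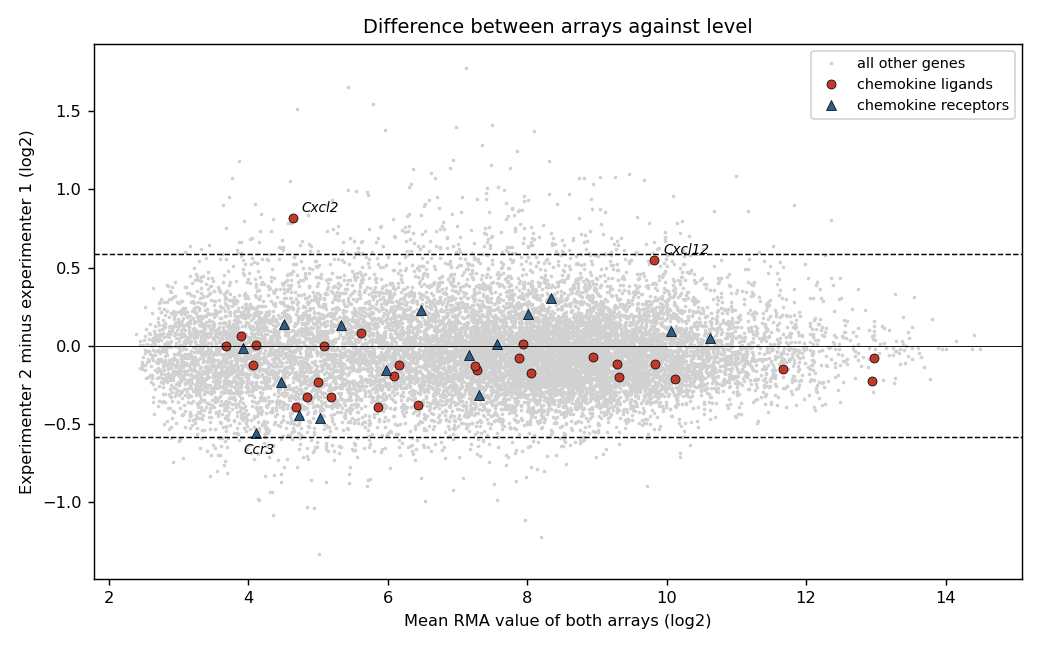
Difference between arrays (experimenter 2 minus experimenter 1, log2, y axis) against the mean RMA value (log2, x axis) for all genes (grey), chemokine ligands (red circles) and receptors (blue triangles); dashed lines mark 1.5-fold. *Cxcl2* lies outside the lines at 0.82, and *Ccr3* and *Cxcl12*, at -0.55 and 0.55, just inside.

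After *Cxcl2* the largest differences were those of *Ccr3* (-0.55) and *Cxcl12* (0.55), then *Ccr2* (-0.46), *Ccr10* (-0.45), *Xcl1* (-0.39), *Ccl7* (-0.39) and *Ccl2* (-0.38). *Cxcl10* and *Ccl24* each differed by -0.33, *Ccr6* by -0.31 and *Cxcr5* by 0.30. Of these 12 genes, *Cxcl2* included, 9 were lower for experimenter 2. Of all genes, 58.7% were lower by any amount, but past 1.5-fold 1.31% were lower and 1.93% higher. No share was computed for differences of the size seen here. *Cxcl2*, *Ccr3*, *Ccr2*, *Ccr10*, *Xcl1*, *Ccl7*, *Cxcl10* and *Ccl24* had means under the median of all probe sets (6.31). At the other end, 14 of the 45 genes differed by under 0.1, against 33.5% of all genes. By their brightest probe sets these included *Cxcl3*, *Cxcr4*, *Ackr3*, *Ccl9*, *Cxcl1* and *Ccr1*.

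The direction varied from family to family. Of all genes, 58.7% were lower for experimenter 2, and of the members 30 of 45 were lower, 14 higher and 1 equal. CC ligands were lower in 15 of 16 genes with a median of -0.14, and in 14 of 16 after each of 3 rescalings (median centring, loess and quantile normalization), which turned *Ccl20*; *Ccl28* was the higher one. CXC ligands were lower in 5 of 11 and higher in 5, with a median of 0, and higher in 6 after the rescalings, since *Cxcl11* had been equal. *Cxcl3* counts as lower by its brightest probe set alone, since its other 4 were higher. CC receptors were lower in 5 of 6 with a median of -0.38, and in 4 of 6 after the rescalings, which turned *Ccr4*. CXC receptors were lower in 2 of 5, and atypical receptors in 1 of 4 with a median of 0.12. The rescalings brought the share of all genes that were lower to between 49.7% and 52.5%.

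By class, 9 of 13 inducible and 4 of 7 homeostatic ligands were lower for experimenter 2, with medians of -0.15 and -0.11. The mixed class was lower in 9 of 9, and in 8 of 9 after the rescalings. These counts are descriptions of 2 arrays, and the difference between families or classes was not tested.

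**Figure D4:**
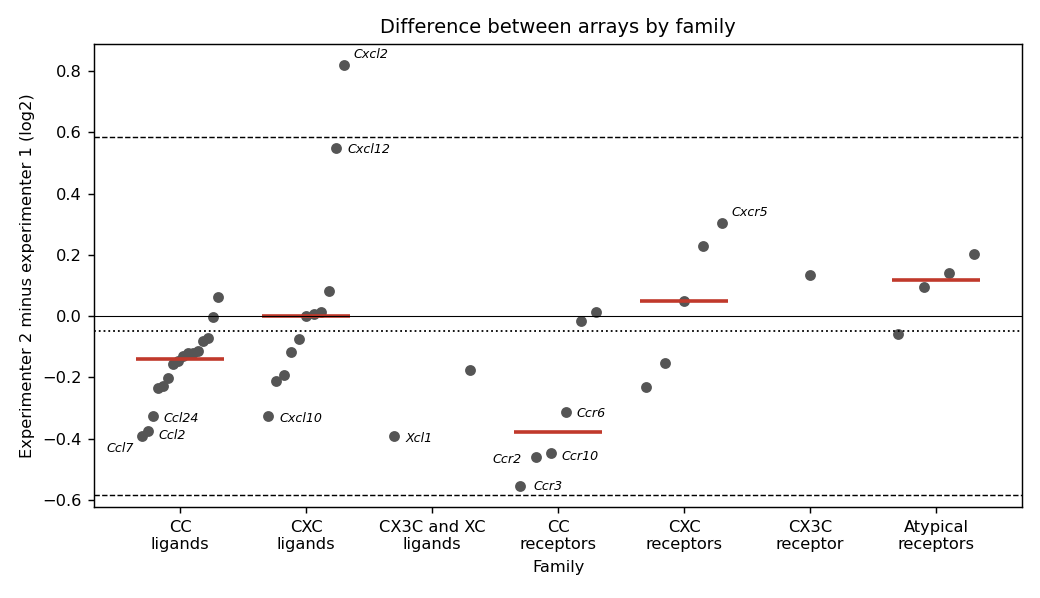
Difference between arrays (experimenter 2 minus experimenter 1, log2, y axis) of each chemokine gene by family; red bars are family medians (families of at least 4 genes), the dotted line is the median of all genes and dashed lines mark 1.5-fold. CC ligands and CC receptors lie mostly below 0, while CXC ligands straddle it.

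Marker lists of the cells that make or carry these proteins stand beside these values, each with a summed level (log2 of the sum of its linear values). Counts of lower genes are to be read against the 58.7% of all genes that were lower. T and NK cell markers, whose cells make *Ccl5* and *Xcl1*, were lower for experimenter 2 in 7 of 8 genes, at 11.56 against 11.71 for experimenter 1. Macrophage and monocyte markers were lower in 5 of 7 (12.28 against 12.41), beside lower values of *Ccl6*, *Ccl9* and *Ccr2* and higher ones of *Cx3cr1* (0.13) and *Ccr1* (0.013). Neutrophil markers were lower in 6 of 7 (12.58 against 12.83), and eosinophil, mast cell and basophil markers in 4 of 7 (9.08 against 9.20). That list is pooled. Of its eosinophil genes, *Epx* was higher for experimenter 2 (3.87 against 3.32) and *Prg2* nearly level (3.98 against 3.99), both at low signal, beside the lower *Ccr3* (-0.55). Lymphatic endothelial markers, beside *Ccl21*, were lower in 3 of 4 (12.62 against 12.90). The higher one was *Prox1* (5.26 against 4.83), and *Flt4* was lower past 1.5-fold (5.33 against 5.98). Both had means under the median of all probe sets, and *Lyve1* was the brightest of the list. Endothelial markers were lower in 4 of 5 (13.79 against 13.89) and platelet markers in 2 of 4 (10.76 against 10.82). Other lists had a higher summed level for experimenter 2. B and plasma cells stood at 11.52 against 11.37 with 2 of 3 genes higher, beside *Cxcr5*, higher by its brightest probe set. Dendritic cells stood at 9.31 against 9.12 with 2 of 3 higher, and airway epithelium at 14.71 against 14.68 with 2 of 3 higher. Alveolar epithelium at 15.59 against 15.56, and fibroblasts and smooth muscle at 13.25 against 13.22, had a higher sum with 4 of 5 genes lower in each. Fewer cells of a type, less RNA per cell and technical variation between arrays cannot be told apart in whole tissue with 1 array each. Whether both arrays carried the same RNA is not given. The part of these markers in the chemokine values was not tested.

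Many chemokine genes lie side by side in the genome. Allowing up to 5 other protein-coding genes in between, 26 members fell into 8 clusters. In 4 of the 8 every gene was lower for experimenter 2. The 58.7% of all genes that were lower is a share of single genes. It gives no background for whole clusters, and none was computed. Apart from *Cx3cl1*, the genes of these 4 clusters are CC ligands, already counted by family above. On chromosome 10, *Ccl2*, *Ccl7* and *Ccl11* were all lower for experimenter 2, with differences from -0.39 to -0.20, as were all 5 of *Ccl5*, *Ccl9*, *Ccl6*, *Ccl3* and *Ccl4*, from -0.23 to -0.072. *Ccl17*, *Cx3cl1* and *Ccl22* on chromosome 19 differed by -0.18 to -0.12, and *Ccl27*, *Ccl19* and *Ccl21* on chromosome 5 by -0.23 to -0.11. The cluster of neutrophil-drawing chemokines on chromosome 14 was mixed: *Cxcl2* was higher by 0.82, *Cxcl1* and *Cxcl6* differed by under 0.1 and *Cxcl3* by -0.075. That value of *Cxcl3* is of its brightest probe set, and its other 4 were higher for experimenter 2. Levels within a cluster varied widely: in that same cluster they ran from 4.11 to 12.94 for experimenter 2 and from 4.10 to 13.02 for experimenter 1.

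Several results rest on the choice of probe set. The 8 genes with more than 1 probe set had 21 between them, and the brightest pair agreed in the sign of the difference for 6 and disagreed for 2. For *Cxcl12* the 3 probe sets differed by 0.55, 0.23 and -0.50 between the arrays, at mean levels of 9.82, 8.84 and 6.67. The 3 of *Cxcr4* differed by 0.051, 0.39 and -0.33, and the first of these has an identifier that marks probes which may hybridise to other transcripts. A single direction over all probe sets held for *Ccl22*, *Cxcl14*, *Cxcl9* and *Cxcr5*, the first 3 lower for experimenter 2 and *Cxcr5* higher. For *Cxcr5* this is agreement in sign only. Its brightest probe set differed by 0.30 and its second by 0.013, at a mean of 3.80.

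Levels also diverged between probe sets of a gene. The 5 probe sets of *Cxcl3* had mean values of 12.98, 11.67, 7.37, 7.36 and 6.54, a span of 6.44, and their differences ran from -0.075 for the brightest to 0.44. The place of *Cxcl3* at the head of the order thus belongs to a single probe set. *Cxcr5* had mean values of 8.34 and 3.80, *Cxcl14* of 9.29 and 5.12, and *Cxcl12* spanned 3.16. The probe sets of *Ackr2*, *Ccl22* and *Cxcl9* lay within 1 log2 unit of each other.

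**Figure D5:**
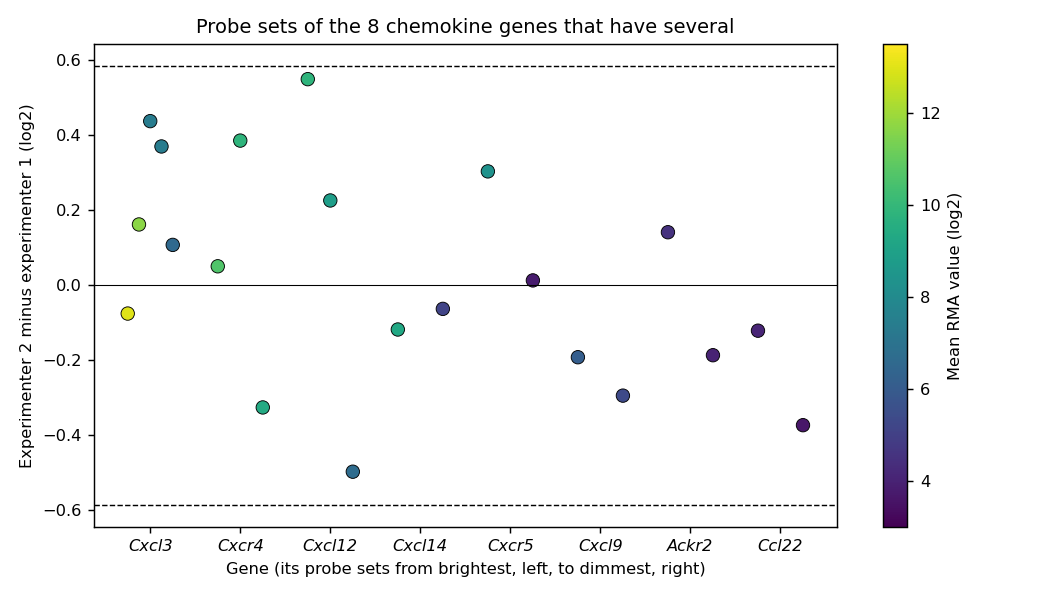
Difference between arrays (experimenter 2 minus experimenter 1, log2, y axis) of every probe set of the 8 chemokine genes with several, coloured by mean RMA value (log2); dashed lines mark 1.5-fold. *Cxcl12* and *Cxcr4* have probe sets on both sides of 0.

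Genes that act with chemokines and their receptors stayed inside 1.5-fold. Of 55 genes measured, 0 were 1.5-fold higher and 0 were 1.5-fold lower, against 1.93% and 1.31% of all genes, and the median difference was -0.059. At those shares few genes of a list this size would pass in any case. The 55 include 6 chemokine or related genes outside the naming rule, described under other observations. Of the 55, 36 were lower, beside 58.7% of all genes. Among G proteins and effectors, 7 of 14 were lower, and the brightest was *Rac1*, a GTPase of cell movement, at 12.36 for experimenter 2 and 12.55 for experimenter 1. Among genes that switch receptors off, 5 of 9 were lower, with *Grk6*, a receptor kinase, brightest at 10.71 and 10.70. Genes that process chemokines or build the heparan sulphate that anchors them were lower in 10 of 13, with *Sdc4*, a cell-surface proteoglycan, brightest at 11.34 and 11.60. Cytokine inducers and regulators, most of them of the NF-κB route, were lower in 10 of 13, with *Nfkbia*, the inhibitor and target of NF-κB, brightest at 11.21 for experimenter 2 and 11.30 for experimenter 1.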

How the data were processed

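The deposited table holds log2 values made by the authors with RMA, per the submitters' processing notes; the version, the arrays normalized together and the log base are not given in the sources used, and base 2 was read from the range of values (2.26 to 14.51). Of 31099 probe sets, 57 controls were left out. RMA gives no detection call. The members and gene lists were chosen with earlier results of these data known. Genes named with full values were the 12 brightest, the 12 with the largest difference, those past 1.5-fold and those with several probe sets; the others complete a family or an axis. Of pathway genes, the brightest of each list and those past 1.5-fold were named. *Tnf*, *Il6*, *Rela*, *Tnfaip3*, *Fos*, *Epx*, *Prg2*, *Prox1* and *Flt4* were added after their values were seen. The number of arrays limits the precision. Alternatives were median centring, loess (fraction 0.3), quantile normalization, other filters, folds, probe set choices and classes. Python 3.11.15 with pandas 2.3.3, numpy 2.4.6 and statsmodels 0.14.6 was used, and the fold rule was tested on simulated data.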

Additional observations from a re-analysis of the deposited data

How the results depend on the processing

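No paired analysis was possible because there is only 1 array for each experimenter; for this reason none could be left out. Of 90 alternative values, 75 stayed within 0.1 (log2) or 1.5 times (counts) of the reported one and 0 reversed. That count is no measure of robustness, since part of the alternatives could not move a value. Updated symbols left the same members, and *Cxcl2*, *Ccr3* and *Ccr2* had no second probe set. Median centring shifted every difference by the same small amount. The dimmest probe sets of *Cxcl12* and *Cxcr4*, at -0.50 and -0.33, had the opposite sign but were not used singly. The cause of the moves was not tested unless given here. The count of genes past 1.5-fold was 2 with the loess trend removed, which added *Cxcl12*, 0 for genes at or above the median level, which leaves out *Cxcl2*, and 0 at 2-fold. The count of lower genes was 15 of 23 at or above the median level, where fewer genes are counted. *Cxcl12* differed by 0.093 by the mean over its probe sets and by 0.23 by its second. The median level of the members was 6.43, and 6.16 with the mean over probe sets. The ligand minus receptor median was 0.21, and became 0.72 by means over genes, 0.38 over single probe sets and 0.78 without atypical receptors. The inducible minus homeostatic median was -0.82, and became -0.17 by means, -0.95 and -0.27 with mixed ligands added to the inducible or the homeostatic side, and -0.050 over single probe sets. Among probe sets not under the median level, the brightest pair agreed in sign for 2 of 3 genes. The counts by family under the 3 rescalings were added after seeing the data. Low signal limits most the 6 genes whose mean lay below the lower quartile of all probe sets, but not these alone. *Cxcl2* for experimenter 1 was brighter than only 22.2% of probe sets. *Ccr2*, *Ccr10*, *Xcl1*, *Ccl7*, *Ccl24* and *Cxcl10*, also among the largest differences, had means under the median of all probe sets. Without a detection call, these differences may rest on signal near background.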

Other observations

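Chemokine and related genes whose names fall outside the naming rule were close on the 2 arrays. *Pf4*, a platelet CXC chemokine that lies in the cluster of *Cxcl3* and *Cxcl6*, measured 10.54 for experimenter 2 and 10.61 for experimenter 1. *Ppbp*, another platelet CXC chemokine beside it, measured 4.45 and 4.44. *Rarres2*, the precursor of the attractant chemerin, measured 10.55 and 10.56, its receptor *Cmklr1* 9.37 and 9.38, and *Ccrl2*, a receptor that binds chemerin, 7.89 and 7.89. All 6 listed genes of this kind, *Pitpnm3* included, were measured, with differences from -0.12 to 0.014.

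*Cxcl11* had the same value, 3.68, on both arrays to every digit deposited. Such equality was found in 98 of the 31042 probe sets and in 26 of the 14217 genes, 0.183% of them.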
